A study of Mus musculus with 9 samples.

Results

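The transcripts followed here are those of 8 transcription factors of enterocyte differentiation, *Hnf4a*, *Hnf4g*, *Klf4*, *Klf5*, *Creb3l3*, *Maf*, *Prdm1* and *Elf3*. They were chosen by name, and each symbol matched 1 row of a count table of 48709 mouse genes. All 8 were among the 15002 genes that passed a read minimum (more than 100 in all 9 libraries together) and were tested. The libraries are poly(A) RNA of the duodenum, where the small intestine begins, from male C57BL/6 J mice aged 10 weeks. Mice had been treated by mouth for 6 h with 1,25D3 and ZK, with 1,25D3 alone or with vehicle, and there were 3 libraries per label. 1,25D3 (calcitriol) is the hormone that activates the vitamin D receptor VDR, and ZK (ZK168281) is an analog of it that antagonizes VDR. By the figure legend of the study, each condition had 3 mice. Each label also carries a number, 1, 2 or 3, and the libraries numbered 1, 2 and 3 are the columns headed 1 to 3, 4 to 6 and 7 to 9 of the table. No source said that a number marks a litter, batch or day.

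The intestinal epithelium is renewed from stem cells in the crypts, and daughter cells become absorptive enterocytes as they move up the villus. HNF4A and HNF4G are paralogous nuclear receptors that bind enhancers of enterocyte genes and together hold enterocyte identity. KLF5 is a zinc finger factor of proliferating crypt cells, and its relative KLF4 marks differentiated cells and goblet cells. The other members act on parts of the program, namely lipid handling (CREB3L3), amino acid transport (MAF), the switch out of the neonatal state (PRDM1) and epithelial maturation (ELF3).

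Before any comparison, the labels were checked with *Cyp24a1*, the VDR target that encodes the enzyme inactivating 1,25D3, and it ran against them. Its level, in CPM (counts scaled to a common library total) adjusted by the trimmed mean of M values (TMM), was 6425 to 7633 in the 3 libraries numbered 2, whatever treatment they were labelled with, and 2.47 to 9.13 in the other 6. Libraries are therefore named by their labels, and each direction between treatments given below rests on labels that *Cyp24a1* contradicts. Counts per library ranged between 22561400 and 41207455. The libraries also stood apart in other ways. The closeness of a pair was measured as the mean chi-square per gene of its counts, which is near 1 where only sampling noise separates a pair. Within a number, the pair labelled 1,25D3 and ZK and vehicle gave 1.85 to 4.94. The pair labelled 1,25D3 3 and 1,25D3 1 gave 1.99, but there was 113 and 120.2 between the library labelled 1,25D3 3 and the others numbered 3. The library labelled 1,25D3 2 was at 96.4 and 103 against the others numbered 2. No pair reached sampling noise, and all 9 were kept as separate samples. P-values between numbers rest on the spread within numbers over all 9 libraries. That spread mixes the close pairs, whose differences may be technical, with the far libraries labelled 1,25D3 3 and 1,25D3 2.

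Markers of neighbouring tissue differed between the numbers and also within them. The 12 pancreatic acinar markers together reached 8830.0 to 41944 TMM CPM for the libraries numbered 2, 42.9 to 3809 in those numbered 3 and 40.8 to 48.5 in those numbered 1. The 8 markers of Brunner glands and stomach summed to 7967 to 9804, 17.4 to 168 and 14.3 to 17.1 TMM CPM in the same order. In both sets the lowest library numbered 3 was that labelled 1,25D3 3, near number 1. The others numbered 3 were at 3725 and 3809 TMM CPM for acinar markers and at 162 and 168 for the second set. The lowest library numbered 2 was that labelled 1,25D3 2 in both sets. All 12 and all 8 were called higher in number 2 against number 1, and *Amy2a5* and *Muc5ac* were at 0 in 1 or more of the other libraries. The 7 fibroblast markers, all called higher too, summed to 212 to 227, 119.9 to 252 and 115 to 121 TMM CPM. The 11 mature enterocyte markers, which check the tissue label, were all present and summed to 42506 to 46594, 34195 to 47276 and 46908 to 47246 TMM CPM, with 1 called higher (*Apoa4*) and 3 lower (*Sis*, *Anpep* and *Lct*) in number 2 against number 1. *Apoa4* made up 18675 to 19503 of the sum in number 2, against 10084 to 10933 in number 1, and the median log2 fold change of the 11 was -0.50. Not every set had called markers between every pair of numbers. Between numbers 2 and 3, 0 of the 7 fibroblast markers were called. Their sums overlapped only through the library labelled 1,25D3 3, at 119.9 TMM CPM. The others numbered 3 were at 233 and 252, above all of number 2. No marker was called between numbers 3 and 1, but neither was any other tested gene, so this does not show equal levels. Median log2 fold changes there were 6.22 for acinar, 0.92 for fibroblast and -0.34 for enterocyte markers. The part of these sets in the differences between numbers given below was not tested. In bulk tissue, fewer cells of a type and less RNA per cell cannot be told apart.

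Per kilobase of annotated exon, *Creb3l3* and *Elf3* were the members with the most reads, and *Prdm1* the member with the fewest. *Creb3l3* was at 147 to 182 TMM CPM per kb over the 9 libraries and *Elf3* at 131 to 172, and these ranges overlapped. *Hnf4a* came next with 84.4 to 101 TMM CPM per kb, and its range overlapped that of *Hnf4g*, at 38.8 to 90.6. *Hnf4g* overlapped in turn with *Klf4*, at 39.5 to 61.1 TMM CPM per kb. *Maf* at 7.58 to 15.2 and *Klf5* at 7.31 to 11.5 TMM CPM per kb overlapped too and lay below all members named so far. *Prdm1* was at 1.44 to 2.62 TMM CPM per kb. Read numbers per library were 192 to 664 for *Prdm1* and at least 1030 for each other member.

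**Figure D1:**
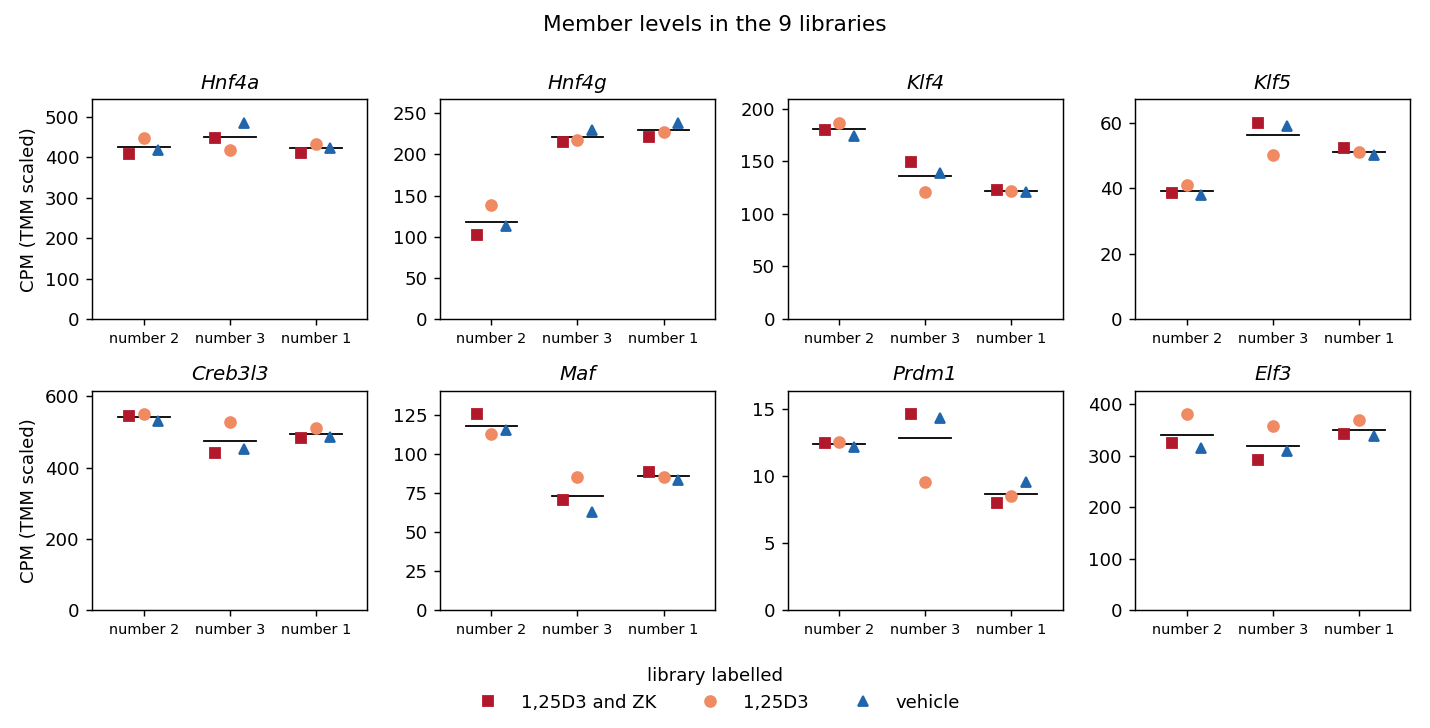
Level of each member in each library, in TMM-scaled CPM, with the libraries grouped by the number on the label and marked by the treatment label. Black lines are means of 3 libraries. *Hnf4g* is low in all 3 libraries numbered 2, at 102 to 138, against 216 to 238 in the other 6.

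Between number 2 and number 1, 1 of the 8 members was called, *Hnf4g*, which was lower. Calls required both a log2 fold change beyond 0.58 in size and, in the quasi-likelihood test of edgeR, a p under 0.05 after Benjamini-Hochberg adjustment. In this comparison 20.4% of all tested genes were called, 12.2% higher and 8.25% lower, so the share of members was no larger than that of all genes. Without the minimum fold, 5 members passed (*Klf4*, *Maf* and *Prdm1* higher, *Hnf4g* and *Klf5* lower), where 38.3% of all genes did. The ranges of the libraries numbered 2 and 1 did not overlap for 6 members, where this held for 61.8% of all genes. Between number 2 and number 3, 2 members were called, *Hnf4g* lower and *Maf* higher, against 11.3% of all genes (6.81% higher, 4.53% lower), a share that would be about 1 of 8 members. Without the minimum fold 4 members passed, with *Klf4* and *Klf5* added, against 23.2% of genes, and the ranges of 5 members did not overlap, against 36.8%. Both comparisons share the libraries numbered 2.

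**Figure D2:**
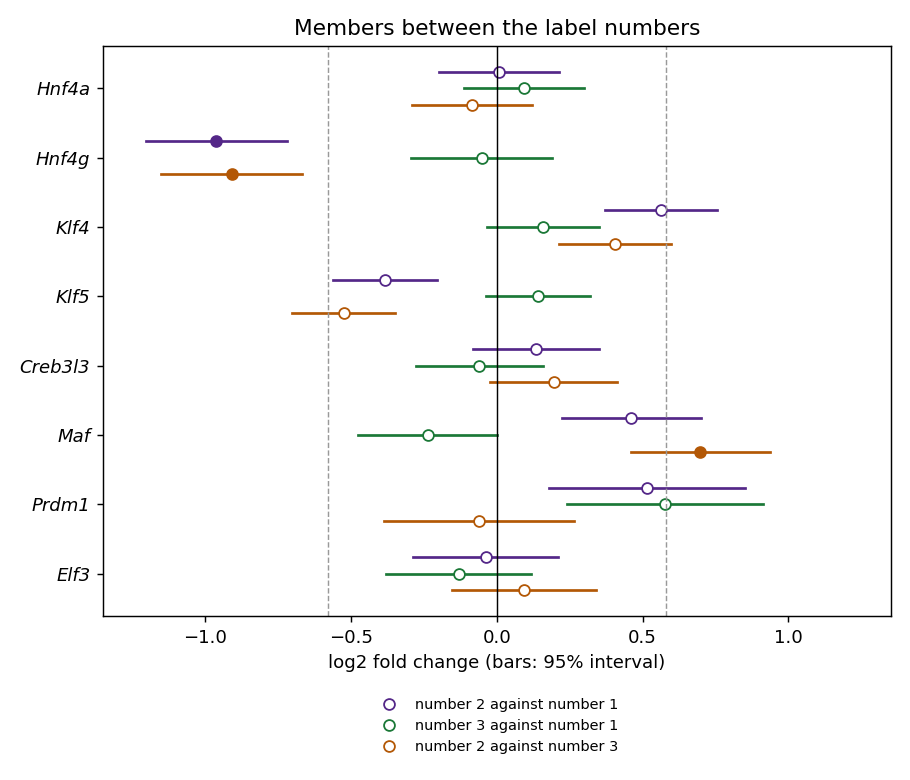
Log2 fold change of each member between label numbers, as points with 95% intervals of edgeR's quasi-likelihood fit. Filled points were called, and dashed lines mark the minimum fold of 0.58 on the log2 scale. Of the filled points, *Hnf4g* lies at -0.96 and -0.91 and *Maf* at 0.70.

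*Hnf4a* and *Hnf4g*, the paralogs with overlapping targets in the enterocyte, differed in this comparison. *Hnf4g* (ENSMUSG00000017688, chr3:3508030-3658052, plus strand, GRCm38) was at 102, 138 and 113 TMM CPM for the libraries labelled 1,25D3 and ZK 2, 1,25D3 2 and vehicle 2. It was at 216, 218 and 229.6 in the same 3 labels numbered 3 and at 222, 228 and 238 in those numbered 1. All 3 libraries numbered 2 lay below all other 6. Of those numbered 2, the library labelled 1,25D3 2, with the least acinar signal of the 3, was the highest. The libraries labelled vehicle 3 and 1,25D3 and ZK 3 had acinar sums of 3809 and 3725 TMM CPM, against 40.8 to 48.5 in number 1. The part of that signal in *Hnf4g* was not tested. Number 2 against number 1 gave a log2 fold change of -0.96 ± 0.11 (SE, edgeR adjusted p = 0.00018), which is 0.514 times the level. Against number 3 its log2 fold change was -0.91 ± 0.11 (SE, edgeR adjusted p = 0.00031).

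*Hnf4a* (ENSMUSG00000017950, chr2:163506808-163572910, plus strand) was at 408, 448 and 419 TMM CPM across the libraries numbered 2, with labels in the same order. It was at 449, 419 and 485 in those numbered 3 and at 410.3, 434 and 423 in those numbered 1. The ranges of all 3 numbers overlapped. Its log2 fold change in number 2 against number 1 was 0.01, with a 95% interval of -0.20 to 0.21, so a change as large as that of *Hnf4g* lay outside the interval. The value near 0 and the overlap of numbers 2 and 1 rest on the TMM scaling. Without TMM the log2 fold change was 0.20 for *Hnf4a* and -0.76 for *Hnf4g*, with no test run on that scale. In CPM of the library total, *Hnf4a* was at 419.6 to 475 in the libraries numbered 2 and at 371 to 397 in those numbered 1, which did not overlap. The ratio of *Hnf4g* to *Hnf4a* reads per kb of exon, which no library scaling can alter, was 0.459, 0.566 and 0.496 in the libraries numbered 2, against 0.881, 0.955 and 0.868 for number 3 and 0.991, 0.962 and 1.03 for number 1. *Hnf4aos*, which runs antisense to *Hnf4a*, shares none of its exon bases and had 59 to 160 reads per library.

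**Figure D3:**
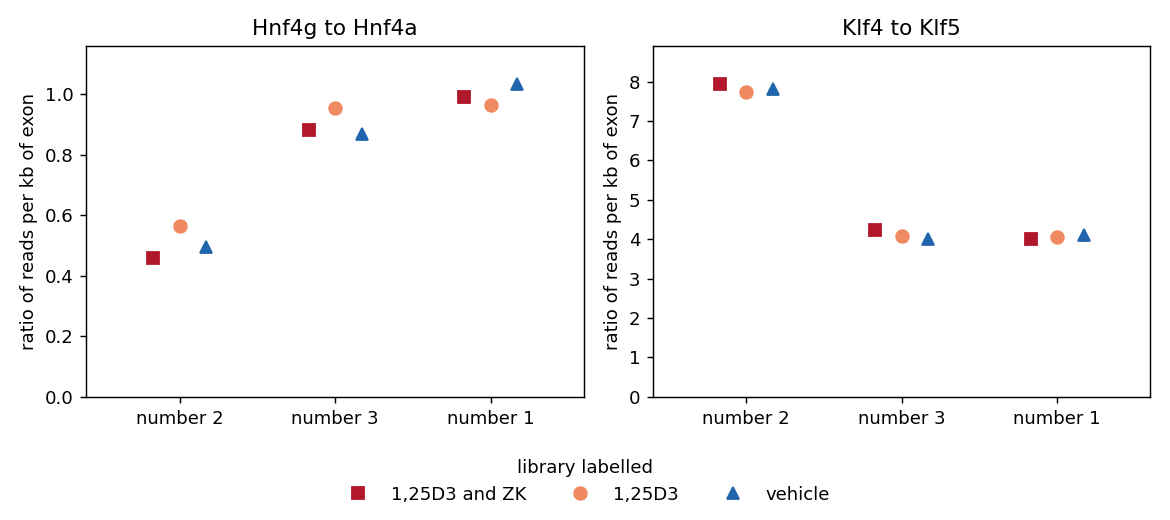
Ratio of reads per kb of exon between paralogs in each library, *Hnf4g* to *Hnf4a* on the left and *Klf4* to *Klf5* on the right, grouped by label number. The libraries numbered 2 stand apart in both ratios, at 0.459 to 0.566 on the left and 7.73 to 7.95 on the right, against 0.868 to 1.03 and 4.00 to 4.24 in the other 6.

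*Hnf4a* is transcribed from more than a single start, and gene counts add all of them up, so isoforms with different first exons cannot be told apart here. Bases upstream of the starts are shown for *Hnf4a*, whose ranges in TMM CPM overlapped between all numbers, and for *Klf4*, which was highest in number 2. They come from RefSeq (GRCm38.p6), where 5 of the 8 members had an entry, and bases in any annotated exon were left out. *Hnf4a* had 2 entries, chr2:163506607-163506807 and chr2:163546943-163547154, and the *Klf4* entry is chr4:55532476-55532725 on the minus strand. Capitals mark GC boxes (GGGCGG) and CACCC boxes (CACCC), the letters that SP and KLF factors are known to bind, on either strand.
*Hnf4a* first entry: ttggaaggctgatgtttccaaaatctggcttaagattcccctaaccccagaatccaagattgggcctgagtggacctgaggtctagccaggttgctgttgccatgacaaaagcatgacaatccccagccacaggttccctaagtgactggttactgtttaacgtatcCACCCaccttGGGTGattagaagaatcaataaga
*Hnf4a* second entry: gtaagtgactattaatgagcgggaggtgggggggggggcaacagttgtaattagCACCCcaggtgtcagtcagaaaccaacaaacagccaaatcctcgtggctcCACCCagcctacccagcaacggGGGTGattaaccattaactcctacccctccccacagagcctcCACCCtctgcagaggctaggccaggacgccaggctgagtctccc
*Klf4*: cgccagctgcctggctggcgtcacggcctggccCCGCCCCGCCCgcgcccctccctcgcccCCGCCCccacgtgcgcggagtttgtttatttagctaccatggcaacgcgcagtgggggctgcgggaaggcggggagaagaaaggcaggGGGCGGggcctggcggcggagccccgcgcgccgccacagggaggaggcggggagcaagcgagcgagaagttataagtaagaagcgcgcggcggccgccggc
The 2 *Hnf4a* windows held 2 and 4 CACCC boxes and no GC box. In the same windows, 44.6% and 47.4% of the 32851 RefSeq promoters hold a CACCC box on either strand. The *Klf4* window held 4 GC boxes, of which 2 overlap by a single base, and no CACCC box, and 32.7% of promoters hold a GC box there. GC content was 74.0% in the *Klf4* window and 47.3% and 58.0% in those of *Hnf4a*. The nuclear receptor half-site AGGTCA, which VDR and related receptors can bind, was found on either strand in 1 of the 7 windows, the internal *Creb3l3* entry (chr10:81092658-81092806), and 8.53% of promoters hold it in that window. These letters are a description and not evidence of binding.

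*Klf4* and *Klf5*, relatives with opposite places along the path from crypt to villus, differed in opposite directions in number 2 against each other number, but both had values above 0 in number 3 against number 1 (log2 fold changes 0.16 and 0.14, neither called). *Klf4* (ENSMUSG00000003032, chr4:55527143-55532466, minus strand) was at 179.9, 186 and 174 TMM CPM for the libraries labelled 1,25D3 and ZK 2, 1,25D3 2 and vehicle 2. In the same order it was at 149, 120.3 and 138 for number 3 and at 123, 122 and 121 for number 1. The libraries numbered 2 were above all others, and the library labelled 1,25D3 3 lay with those numbered 1. Number 2 against number 1 gave a log2 fold change of 0.56 ± 0.09 (SE, edgeR adjusted p = 0.00095), just under the minimum fold, so *Klf4* was not called. It passed with only genes of more than 1000 reads in the fit, at 0.61, and without the library labelled vehicle 2, at 0.59. Against number 3 it was 0.40 (edgeR adjusted p = 0.0075).

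*Klf5* (ENSMUSG00000005148, chr14:99298691-99315036, plus strand) was at 38.6, 41.1 and 38.0 TMM CPM across the libraries numbered 2, at 60.0, 50.3 and 59.0 in those numbered 3 and at 52.3, 51.1 and 50.2 in those numbered 1. The libraries numbered 2 lay below all others. Log2 fold changes were -0.38 ± 0.08 in number 2 against number 1 (SE, edgeR adjusted p = 0.0049) and -0.53 ± 0.08 against number 3 (edgeR adjusted p = 0.0012), both within the minimum fold. Without the library labelled 1,25D3 3 the second value was -0.60, which was called. The ratio of *Klf4* to *Klf5* reads per kb was 7.95, 7.73 and 7.81 in the libraries numbered 2, against 4.24, 4.08 and 4.00 for number 3 and 4.01, 4.06 and 4.11 for number 1. The ratio thus separated number 2 from the rest with little spread within each set. Goblet cell markers, where *Klf4* is also known to act, summed over 7 genes to 11727 to 11795 TMM CPM for number 2, 8619.6 to 11227 for number 3 and 10673 to 11057 for number 1. Of them 1 was called higher (*Agr2*) and 1 lower (*Muc2*) in number 2 against number 1, and their part in *Klf4* was not tested.

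*Maf*, a basic leucine zipper factor known in mice to act on amino acid transport and maturation of enterocytes, was the other called member. *Maf* (ENSMUSG00000055435, chr8:115682942-115707794, minus strand) was at 125, 113 and 115 TMM CPM for the libraries labelled 1,25D3 and ZK 2, 1,25D3 2 and vehicle 2. It was at 70.2, 85.3 and 62.4 for number 3 and at 88.2, 85.2 and 83.1 for number 1. The libraries numbered 2 were above all others, and the library labelled 1,25D3 3 again lay within the range of number 1. *Maf* was higher in number 2 against number 3 by 0.70 ± 0.11 on the log2 scale (SE, edgeR adjusted p = 0.0013). Against number 1 its log2 fold change was 0.46 ± 0.11 (SE, edgeR adjusted p = 0.0081), which is within the minimum fold. Macrophages also express *Maf*. The 9 markers of macrophages and dendritic cells summed to 375 to 378 TMM CPM for number 2, 340.2 to 395 for number 3 and 326 to 327 for number 1, with *Mrc1* and *Lyz2* called higher in number 2 against number 1, the other 7 not called and none of the 9 at 0. *Lyz2* was at 142 to 149 TMM CPM in number 2 against 88.5 to 97.5 in number 1, while *Csf1r*, *Adgre1*, *Cd68* and *Itgax* had log2 fold changes of -0.21, -0.23, -0.21 and -0.20, and the median of the 9 was 0.03. The part of these cells in *Maf* was not tested. *Gm15655*, antisense to *Maf* with 440 shared exon bases, had 0 to 9 reads per library.

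*Prdm1*, which encodes the repressor BLIMP1, known in the mouse intestine for holding the neonatal program before weaning and in B cells for driving plasma cell formation, was the least abundant member. *Prdm1* (ENSMUSG00000038151, chr10:44437177-44528501, minus strand) was at 12.5, 12.6 and 12.2 TMM CPM across the libraries numbered 2, at 14.6, 9.57 and 14.3 in those numbered 3 and at 8.02, 8.50 and 9.55 in those numbered 1. The libraries numbered 1 were below all others, but the library labelled 1,25D3 3 (196 reads) was barely above that labelled vehicle 1 (223 reads). In number 2 against number 1 its log2 fold change was 0.51 ± 0.15 (SE, edgeR adjusted p = 0.023), and in number 3 against number 1 it was 0.58 ± 0.15 (SE, edgeR adjusted p = 0.14). Neither was called. Without the library labelled vehicle 1 the first value was 0.59 (edgeR adjusted p = 0.039), and it was then called. The 8 plasma cell markers summed to 3326 to 3826 TMM CPM for number 2, 4805 to 5326 for number 3 and 5351 to 5489 for number 1. Most of that sum was *Jchain*, at 2736 to 3173 TMM CPM in number 2, 4229.8 to 4794 in number 3 and 4829.7 to 4952 in number 1, the only 1 of the 8 called between numbers 2 and 1. The median log2 fold change of the 8 was 0.07, and none was at 0. *Irf4*, a factor of plasma cells and other lymphocytes, was at 8.96, 11.4 and 10.97 TMM CPM in number 2, at 16.7, 7.08 and 15.9 in number 3 and at 6.05, 6.91 and 7.24 in number 1, with the library labelled 1,25D3 3 beside number 1 as for *Prdm1*. The part of these cells in *Prdm1* was not tested.

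*Creb3l3*, a factor anchored in the endoplasmic reticulum whose released part acts on apolipoprotein genes, was not called between any numbers. *Creb3l3* (ENSMUSG00000035041, chr10:81084324-81098874, minus strand) was at 546, 550.3 and 531 TMM CPM across the libraries numbered 2, at 442, 529 and 452 in those numbered 3 and at 484, 512 and 486 in those numbered 1. The libraries numbered 2 were above all others, though by little over the library labelled 1,25D3 3. Number 2 differed from number 1 by 0.13 on the log2 scale (95% interval -0.08 to 0.35, edgeR adjusted p = 0.30) and from number 3 by 0.19 (95% interval -0.02 to 0.41, edgeR adjusted p = 0.19).

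*Elf3*, an ETS factor of epithelia that in mice acts on the TGF-beta receptor gene *Tgfbr2*, overlapped between all numbers. *Elf3* (ENSMUSG00000003051, chr1:135253575-135258568, minus strand) was at 325, 381 and 316 TMM CPM for the libraries labelled 1,25D3 and ZK 2, 1,25D3 2 and vehicle 2. It was at 291, 359 and 309 in those numbered 3 and at 343, 369 and 338 in those numbered 1. Its log2 fold change in number 2 against number 1 was -0.04, with a 95% interval of -0.29 to 0.21, and its sign turns without TMM. *Gm26642*, antisense to *Elf3* with 162 shared exon bases, had 1 to 8 reads per library.

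Between number 3 and number 1, no member and no gene was called (0% of genes, also 0% without the minimum fold). Before adjustment, edgeR gave 3940 genes with p under 0.05, 1 member (*Prdm1*) among them. DESeq2 called 398 genes and 0 members, and voom in limma called 0. Ranges did not overlap for 1 member, *Prdm1*, against 18.4% of all genes. For *Prdm1* they nearly touched, at 9.57 TMM CPM in the library labelled 1,25D3 3 and 9.55 in that labelled vehicle 1. The library labelled 1,25D3 3 decided these counts. Without it 2850 of 14880 tested genes were called and 1 of the 8 members. That member was *Prdm1*, at 0.74 ± 0.08 on the log2 scale (SE, edgeR adjusted p = 2.8e-05). In that fit *Klf4* was at 0.24, *Klf5* at 0.22, *Maf* at -0.37, *Creb3l3* at -0.15 and *Elf3* at -0.22, with edgeR adjusted p of 0.002, 0.0039, 0.00062, 0.03 and 0.033, all within the minimum fold. *Hnf4g* was at -0.04 (edgeR adjusted p = 0.75) and *Hnf4a* at 0.14 (edgeR adjusted p = 0.06). Both other libraries numbered 3 lay above the range of number 1 in *Prdm1* and below it in *Maf*.

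The treatment labels, whose comparison asks whether 1,25D3 or its combination with ZK alters these transcripts within 6 h, separated no member by the test. For 1,25D3 and ZK against vehicle, 1,25D3 against vehicle and 1,25D3 and ZK against 1,25D3, edgeR called 0 members and 0 genes (0%, 0% and 0%), while 24, 135 and 147 genes and 0 members had p under 0.05 before adjustment. Neither DESeq2 nor voom called any (0 genes in each). Ranges did not overlap for 1.79%, 3.96% and 4.39% of genes in the same order and for 0, 1 and 1 of the members. That member was *Elf3* in both cases. It averaged 319.8 ± 26.1 TMM CPM for the libraries labelled 1,25D3 and ZK, 369 ± 11.1 in those labelled 1,25D3 and 321 ± 15.5 in those labelled vehicle (SD, n = 3 each). Within each number the library labelled 1,25D3 had the highest *Elf3* value. Its log2 fold change was 0.20 in 1,25D3 against vehicle (95% interval -0.09 to 0.49, edgeR adjusted p = 1) and -0.21 in 1,25D3 and ZK against 1,25D3 (95% interval -0.50 to 0.08, edgeR adjusted p = 1). In CPM of the library total the separation was lost, with 326 to 403 in the libraries labelled 1,25D3 and 307 to 351 in those labelled vehicle.

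For the other members, log2 fold changes between treatment labels were -0.23 to 0.20, the outermost both of *Prdm1*. Intervals were widest for *Hnf4g*, which depends most on the number, at -0.96 to 0.75 for 1,25D3 and ZK against vehicle, -0.85 to 0.86 for 1,25D3 against vehicle and -0.97 to 0.74 for 1,25D3 and ZK against 1,25D3. *Hnf4g* averaged 179.7 ± 67.4, 195 ± 49.1 and 194 ± 69.9 TMM CPM for the libraries labelled 1,25D3 and ZK, 1,25D3 and vehicle (SD, n = 3 each). Such intervals allow changes in either direction and do not show that the treatments act alike on these genes.

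**Figure D4:**
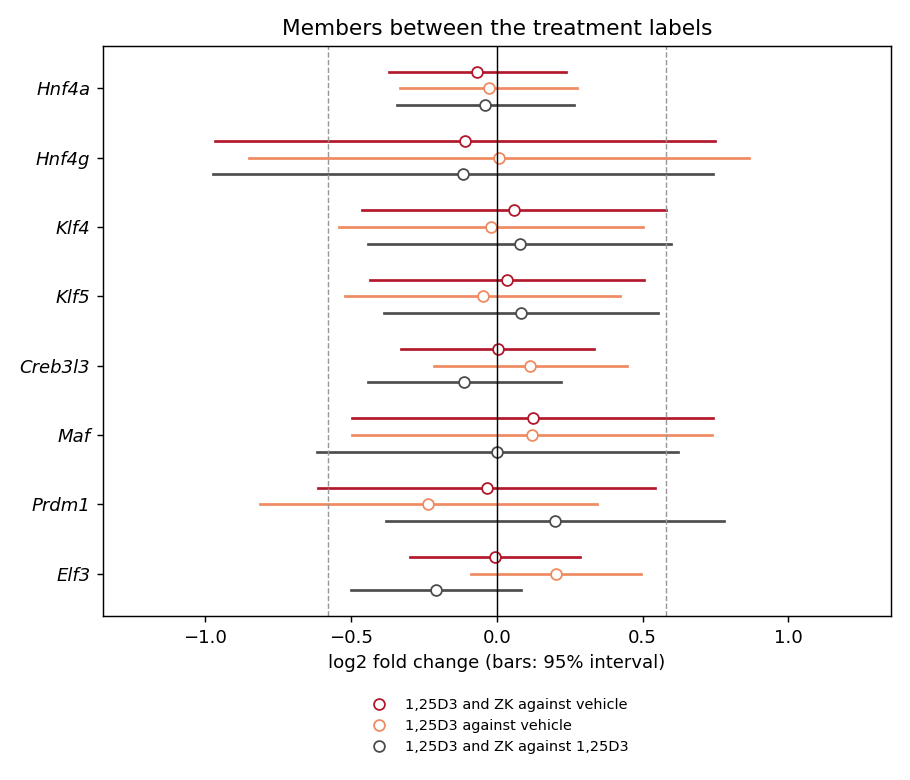
Log2 fold change of each member between treatment labels, as points with 95% intervals of edgeR's quasi-likelihood fit. All points are open, since no member was called, and dashed lines mark the minimum fold of 0.58 on the log2 scale. The interval of every member crosses 0.

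Relatives of the members were set beside them in number 2 against number 1, where the median log2 fold change of all tested genes was 0.03. The shares of all tested genes called there, 12.2% higher and 8.25% lower, are the background for each list below. Of the 10 other KLF genes tested, 2 were called higher, 1 lower and 7 not called (median 0.13). *Klf6* was at 137 to 147 TMM CPM across the libraries numbered 2 against 71.0 to 75.4 in those numbered 1 (log2 fold change 0.98), *Klf10*, a TGF-beta responsive gene, at 29.1 to 30.1 against 12.0 to 13.8 (1.19), and *Klf15* at 3.12 to 3.72 against 7.41 to 8.79 (-1.28). Of 8 other MAF and NFE2 factors tested, 5 were called higher and 0 lower (median 0.83). The small MAF proteins, which pair with NFE2 factors and BACH1, were among them, with *Mafk* at 42.4 to 44.1 TMM CPM against 25.9 to 26.4 (0.74), *Mafg* at 27.8 to 28.3 against 13.5 to 15.9 (0.92) and *Maff* at 9.47 to 11.1 against 3.67 to 4.71 (1.30). *Bach1* was at 103 to 112 against 42.4 to 48.0 TMM CPM (1.23).

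Of 8 other PRDM genes tested, 4 were called higher and 0 lower (median 0.40), all at low levels, the most abundant being *Mecom* at 17.4 to 18.6 TMM CPM in number 2 against 8.35 to 8.43 in number 1 (log2 fold change 1.09). *Prdm15* was at 6.71 to 8.32 against 2.43 to 2.63 (1.61). Of 12 other ETS genes tested 1 was called higher, 0 lower and 11 not called (median 0.19), and the most abundant, *Ets2* at 103 to 105 against 87.3 to 94.5 TMM CPM, was not called. Of the 8 relatives and activating proteases of CREB3L3, 1 was called higher (*Creb3l4*, 7.68 to 9.69 against 4.18 to 4.37 TMM CPM, log2 fold change 1.07), 1 lower (*Creb3l2*, 31.7 to 48.6 against 55.8 to 58.9, -0.61) and 6 not called, with a median of 0.07.

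Among 18 other transcription factors of the intestinal epithelium, 3 were called higher, 5 lower and 10 not called (median -0.12). The bile acid receptor gene *Nr1h4* was higher at 49.5 to 51.7 TMM CPM in number 2 against 32.0 to 33.4 in number 1 (log2 fold change 0.64). *Cdx1*, an intestinal homeobox gene, was lower at 47.6 to 50.8 against 88.3 to 97.7 TMM CPM (-0.93), as was the fatty acid receptor gene *Ppara* at 16.4 to 19.5 against 30.4 to 31.8 (-0.81). The Notch and BMP pathways guide differentiation along the crypt and villus. Of 11 Notch pathway genes, 1 was called higher, the ligand gene *Dll4* (0.64), 1 lower and 9 not called, and the median was 0.04. Of 17 BMP pathway genes 5 were called higher and 1 lower (median 0.22), with the BMP target *Id3* at 134 to 174 against 56.9 to 59.2 TMM CPM (1.43), the ligand *Bmp2* at 28.2 to 32.8 against 13.1 to 14.1 (1.18), the inhibitory *Smad7* at 19.7 to 25.4 against 9.94 to 11.1 (1.11) and the antagonist *Grem1* at 18.3 to 22.6 against 29.0 to 31.3 (-0.59).

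Genes on which the members are known to act were counted in number 2 against number 1. Of all tested genes, 12.2% were called higher there and 8.25% lower. Of 11 amino acid and peptide transporters 7 were called lower, 0 higher and 4 not called (median log2 fold change -0.78), while *Maf* itself, at 0.46, was not called. *Slc6a19*, the main neutral amino acid transporter of the brush border, was at 651 to 826 against 1206 to 1276 TMM CPM (-0.78), *Slc3a2* at 198 to 239 against 358 to 372 (-0.78), *Slc3a1* at 155 to 208 against 335 to 349 (-0.97) and *Slc7a8* at 103 to 161 against 307 to 337 (-1.38). Of 16 brush border genes, a class bound by HNF4 factors, 6 were called lower, 1 higher and 9 not called (median -0.39). *Cdhr5*, a protocadherin that links microvilli, was at 1347 to 1593 against 2445 to 2558 TMM CPM (-0.80), and the myosin genes *Myo1a*, *Myo7b* and *Myo1d* had log2 fold changes of -0.64, -0.62 and -0.82.

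Lipid absorption genes known as targets of HNF4 factors or CREB3L3 moved both ways. Of 14 tested, 2 were called higher, 3 lower and 9 not called (median log2 fold change -0.26). The apolipoprotein gene *Apoa4* was higher at 18675 to 19503 TMM CPM in number 2 against 10084 to 10933 in number 1 (0.86). *Fabp1*, the liver-type fatty acid binding protein, was lower at 1762 to 1999.7 against 3357 to 3610.0 TMM CPM (-0.90), *Apob*, the scaffold of chylomicrons, at 1521 to 2153 against 2782 to 3009 (-0.74) and *Dgat1*, an enzyme of triglyceride synthesis, at 543 to 548 against 945 to 964 (-0.81). In number 3 *Apoa4* was at 9201 to 11156 TMM CPM, which overlapped the range of number 1.

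Genes that mark positions along the villus were counted the same way. Of 10 villus tip genes 5 were called higher, 0 lower and 5 not called (median log2 fold change 0.61). *Ada*, adenosine deaminase, was at 4008 to 4099 TMM CPM in number 2 against 1129.8 to 1178 in number 1 (1.82), the nucleoside transporter gene *Slc28a2* at 258 to 287 against 120.1 to 124 (1.17), and the immediate early genes *Fos* and *Junb* had log2 fold changes of 0.85 and 0.83. Of 9 villus bottom genes 2 were called higher, the antimicrobial lectin genes *Reg3b* (1.58) and *Reg3g* (1.08), and 1 lower, *Nlrp6* (-0.62), with a median of -0.26. Of 15 crypt and proliferation genes, the class in which *Klf5* is best known, 2 were called lower, 0 higher and 13 not called (median -0.11). *Olfm4*, a stem cell marker, was at 123 to 149 against 245 to 249 TMM CPM (-0.87) and *Ascl2* at 1.86 to 2.24 against 3.04 to 3.97 (-0.74). In number 3 against number 1, 0 genes of any of these lists were called, since no gene was.

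**Figure D5:**
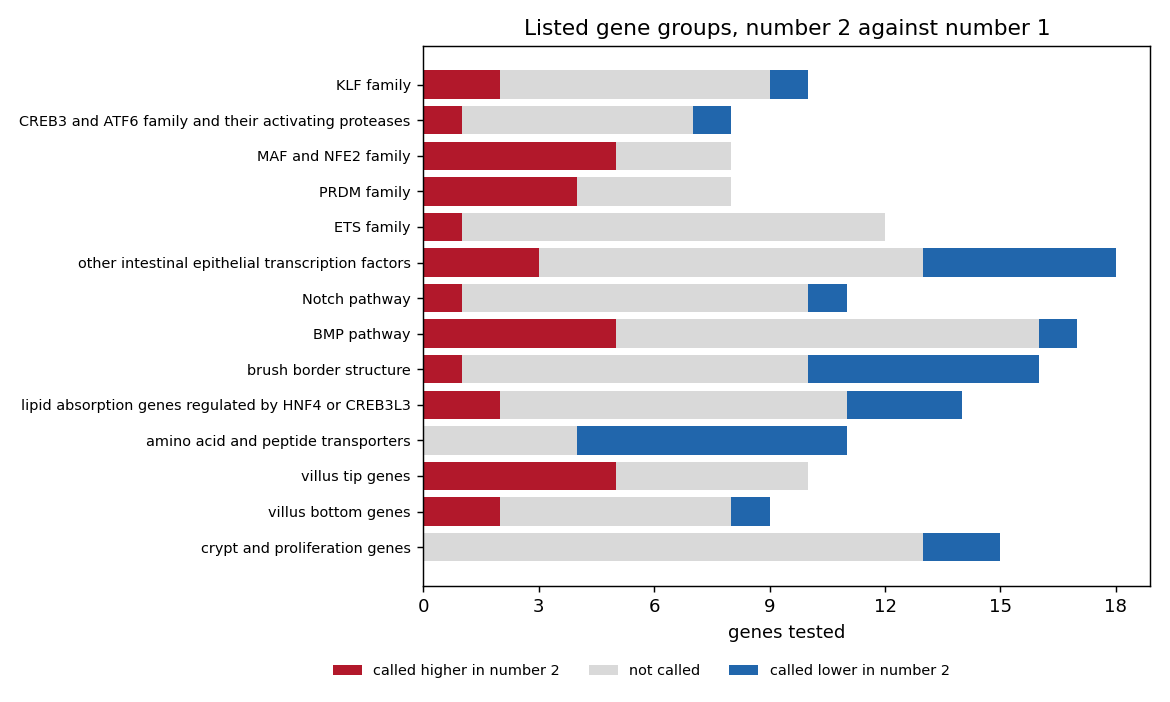
Number of genes called higher, not called and called lower in number 2 against number 1 for 14 lists of related genes, with the members left out. Amino acid and peptide transporters have 7 of 11 called lower, and MAF and NFE2 factors 5 of 8 called higher. Of all tested genes, 8.25% were called lower and 12.2% higher.

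The genes whose log2 levels were most like those of a member over the 9 libraries were named for each, from 7989 candidates with a mean of at least 10 TMM CPM, by Pearson's r as a measure of likeness. These are the highest of many values over libraries that fall into close sets, so a high r is a description only. They were *Hipk1* (0.998) and *Tnfaip3* (0.996) for *Hnf4g*, *Lpin3* (0.98) and *Ambra1* (0.976) for *Hnf4a*, *Trim12c* (0.992) and *Crcp* (0.99) for *Klf4*, and *Ppara* (0.996) and *Ifngr1* (0.995) for *Klf5*. For *Maf* they were *Snrnp27* (0.996) and *Sptssa* (0.994), for *Creb3l3* *Misp* (0.99) and *Plekhg6* (0.989), for *Prdm1* *Slc25a25* (0.993) and *Nfya* (0.988), and for *Elf3* *2900026A02Rik* (0.961) and *Igkv3-2* (0.959). As an example, *Hipk1* was at 44.5 to 54.1 TMM CPM across the libraries numbered 2 and at 69.8 to 74.0 in the other 6. *Ppara*, which is also on the list of epithelial factors, lay at 16.4 to 19.5 in number 2 and at 30.4 to 42.1 in the other 6.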

How the data were processed

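Poly(A) RNA of 9 mouse duodenum samples was sequenced from stranded libraries as single reads. According to the labels and the study's methods, base calling used bcl2fastq 2.17.1.14, adapter dimers were taken out, alignment to mm10 used Tophat on top of Bowtie2, and HTSeq gave per-gene numbers of uniquely aligned reads. The authors deposited raw counts, not normalized, for 48709 genes. The strand setting and the annotation release are not given in the sources used here. Genes with an overlapping antisense gene are therefore uncertain. Columns were matched to samples by the digit in each sample's description.

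Symbols, coordinates and exon lengths come from GENCODE M21 (GRCm38, which is mm10), which named 48349 genes. With R 4.3.3, TMM scaling and the quasi-likelihood test of edgeR 4.0.16 were applied to the 15002 genes over 100 reads, with all 9 libraries and no covariate, once with a mean per treatment label and once with a mean per number. P-values were adjusted over all tested genes by the Benjamini-Hochberg method, and calls needed an adjusted p under 0.05 and a log2 fold change over 0.58 in size. Standard errors divide the absolute log2 fold change by the root of the F statistic. The fit was tested on simulated counts with known changes. These were drawn as independent libraries with the same dispersion for every gene. That test therefore does not bear on p-values from libraries that fall into close sets, as here.

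Same-numbered libraries labelled 1,25D3 and ZK and vehicle deviated together (r = 0.913 to 0.959 over genes, a hint from the data and not the design), while in the other comparisons the pair numbered 3 did not (-0.03 and -0.01). Alternatives were DESeq2 1.42.0 and its size factors, limma 3.58.1 voom, other read filters, no minimum fold, only the libraries compared, the number or treatment as a term, each library left out, and CPM without TMM.

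The members and lists were chosen with earlier results of these data known. All members are named, and of each list the called genes with the highest mean in number 2 against number 1, up to 4, or the 2 highest where under 2 were called. Some genes that this rule names are not reported here. For likeness, 1 was added to TMM CPM before log2. Intervals cover the fit's error only.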

Additional observations from a re-analysis of the deposited data

How the results depend on the processing

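The calls of *Hnf4g* (number 2 against 1 and against 3) and *Maf* (number 2 against 3) kept their sign and their call in all 51 values under the alternatives. The values with no minimum fold are among these, and they come from the unchanged fit, so they could not differ. Between number 2 and number 1, where 3067 genes and 1 member were called, 1975 genes and 2 members were called among genes with more than 1000 reads (10713 tested), and 5751 genes and 5 members with no minimum fold. Between number 2 and number 3, 3475 genes and 4 members were called with no minimum fold, against 1702 genes and 2 members. Between number 3 and number 1, where none was called, the Wald test of DESeq2 called 398 genes and 0 members. The fit with every gene of at least 1 read called 467 of 27463 genes and 1 member (*Prdm1*, log2 fold change 0.59). The cause was not tested.

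With each library left out in turn, the counts were 2368 to 3441 genes and 1 to 2 members for number 2 against number 1, 1258 to 2320 genes and 2 to 3 members for number 2 against number 3, and 0 to 2850 genes and 0 to 1 members for number 3 against number 1. The second member came without the library labelled vehicle 1 (*Prdm1*, 0.59) or vehicle 2 (*Klf4*, 0.59), and the 2850 genes without that labelled 1,25D3 3. Where a set kept 2 libraries, they were assumed to vary like the rest. The library labelled 1,25D3 3 also widened errors of number 2 against number 1, which do not hold it. Without it the SE there fell from 0.086 to 0.045 for *Klf4* and from 0.109 to 0.090 for *Hnf4g*.

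With the number as a replicate block, edgeR called 0 genes and 0 members in all 3 treatment comparisons, as without it, so the block changed no call. All other alternatives also gave 0 there. *Cyp24a1* contradicts the labels on which these counts rest.

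Of 816 fold changes of members under the alternatives, which count the unchanged fit with no minimum fold but not CPM without TMM, 57 changed sign. All 57 were uncalled and at most 0.12 in size as reported. Leaving out TMM, which was applied to levels and not refitted, moved 12 of 24 mean levels by 1 SD or more and added 0.20 to each log2 fold change of number 2 against number 1 and 0.22 to those of number 3 against number 1. This turned the sign of *Elf3* in both and of *Hnf4g* and *Creb3l3* in the second, none of them called. It also brought *Klf4*, *Maf* and *Prdm1* to 0.76, 0.66 and 0.71 in number 2 against number 1 and *Prdm1* to 0.79 in number 3 against number 1, beyond the minimum fold, with no test run on that scale. Depth limits *Prdm1* most, with 192 reads in its lowest library.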
